A study of Mus musculus with 2 samples.

Results

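The imprinted Dlk1-Dio3 domain of mouse chromosome 12 was followed on a pair of Affymetrix arrays that compared H2A.B-depleted embryonic stem (ES) cells with control cells. Its members were Meg3, Rian, Mirg, Dlk1, Rtl1 and Dio3, and every probe set that the platform annotation gave to exactly one of these symbols was taken. This gave 16 of the 45118 probe sets in the table. Meg3 had 10 of them, Rian 4, Mirg 1 and Dlk1 1, whereas Rtl1 and Dio3 were named by 0 probe sets and are not described by values. All 16 had usable values on both arrays. No filter on low values was applied, and 13 of the 16 lay at or above the median brightness of all usable probe sets.

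The study had 2 groups with 1 array each. H2A.B is a short variant of histone H2A. The group named H2A.B KD (sample title "#1 shH2A.B ES cells") carried a retrovirus with a short-hairpin RNA against H2A.B, and the group named Control KD carried the same type of retrovirus with a control RNA sequence. Both hairpins were driven by a U6 promoter in the pMSCV-neo vector, both populations were kept in G418 for between 2 and 4 weeks, and both grew without feeder cells on gelatin in serum with leukaemia inhibitory factor. The strain, sex and line of the ES cells were not given in the sources used here. The 3 H2A.B genes were named by 0 probe sets, so depletion itself could not be read from these arrays. With 1 array per group there was no replicate error and no test, and each difference below describes these 2 arrays.

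In an imprinted domain the parental copies of a chromosome are used unequally. In the Dlk1-Dio3 domain the paternal copy expresses the protein-coding genes Dlk1, Rtl1 and Dio3, and the maternal copy expresses the long non-coding RNAs Meg3 (also called Gtl2), Rian and Mirg, which carry many small nucleolar RNAs and miRNAs. A differentially methylated region between Dlk1 and Meg3, methylated on the paternal copy, controls this choice. In mouse pluripotent cells the domain is known for Meg3, whose silencing in some reprogrammed lines goes with a poor capacity to form a whole animal. The arrays do not tell the parental copies apart.

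Dlk1 and Meg3 had the widest differences. On the knockdown array Dlk1 was 2.08-fold lower on its only probe set. Meg3 was higher on 7 of its 10 probe sets, lower on 2 and equal on 1, with a median log2 difference (knockdown minus control) of 0.27. The 5 probe sets of Rian and Mirg differed by between -0.14 and 0.04 on the log2 scale. In all, 1 of 16 probe sets (6.25%) was at least 2-fold apart, against 3.71% of all 43045 usable probe sets. At 1.5-fold, 3 of 16 (18.8%) were apart, against 8.07% of all. The other 13 differed by less than 1.5-fold.

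The promoters of Meg3 and Dlk1 are shown because the genes come from opposite parental copies and were the ones with the widest differences. Each run covers 300 bases of the plus strand of chromosome 12, from RefSeq with the GRCm38.p6 assembly. Capitals mark matches, on either strand, to 4 motifs. The cyclic AMP response element was searched as TGACGTCA. The core promoter element bound by the general transcription machinery, the TATA box, was searched as TATAAA. The motif of the imprint-protecting zinc finger protein ZFP57, which binds it when methylated, was searched as TGCCGC. The CCAAT box was searched by the letters of its name.
Meg3, chr12:109540746-109541045: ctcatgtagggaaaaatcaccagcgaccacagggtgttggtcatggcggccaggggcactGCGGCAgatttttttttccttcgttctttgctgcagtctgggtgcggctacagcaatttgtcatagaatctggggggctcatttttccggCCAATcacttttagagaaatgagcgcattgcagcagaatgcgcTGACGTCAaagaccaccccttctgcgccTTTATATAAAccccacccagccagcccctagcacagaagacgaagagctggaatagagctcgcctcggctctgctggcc
Dlk1, chr12:109452573-109452872: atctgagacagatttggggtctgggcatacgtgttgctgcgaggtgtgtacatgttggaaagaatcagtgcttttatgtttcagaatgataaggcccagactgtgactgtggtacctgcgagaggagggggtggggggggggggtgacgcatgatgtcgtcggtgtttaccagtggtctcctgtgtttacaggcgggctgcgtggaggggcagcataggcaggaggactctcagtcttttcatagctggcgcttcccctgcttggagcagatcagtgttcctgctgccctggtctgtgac
The Meg3 window shown, at the first of 2 start sites in the table, held 1 cyclic AMP response element, which 1.79% of 32851 promoter windows hold. It also held 1 CCAAT box (37.4% of windows hold one), 1 ZFP57 hexamer (11.6%) and 2 TATA matches on opposite strands that overlap each other (13.6%). None of these motifs was found in the Dlk1 window, nor in that of the other Meg3 start site (chr12:109545148-109545447), which had 1 CpG dinucleotide. The Meg3 window shown had 13 CpG dinucleotides and the Dlk1 window 9, with a median of 7 over all windows. These matches describe sequence only, and methylation was not measured here.

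Dlk1 encodes a membrane protein related to the Notch ligands, known as preadipocyte factor 1 for holding back fat cell differentiation. Its log2 intensity was 6.34 in control cells and 5.28 in knockdown cells, a difference of -1.06. The knockdown level therefore lay below that array's median of 5.59, while the control level lay above its own median of 5.64. The probe set, 1449939_PM_s_at, is of the s type, whose probes can match more than one transcript, and no other probe set was named for Dlk1. It lies in the last section of the table, where 3.72% of probe sets were at least 2-fold lower. Among the 1751 probe sets of that section within 0.5 of its mean intensity, 7.25% differed by at least as much in either direction. To the last deposited digit, the control value of Dlk1 also occurs on the knockdown array 4271 rows above. In that section 1.12% of control values recur somewhere in the table, and what this recurrence has to do with the Dlk1 difference was not tested.

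**Figure D1:**
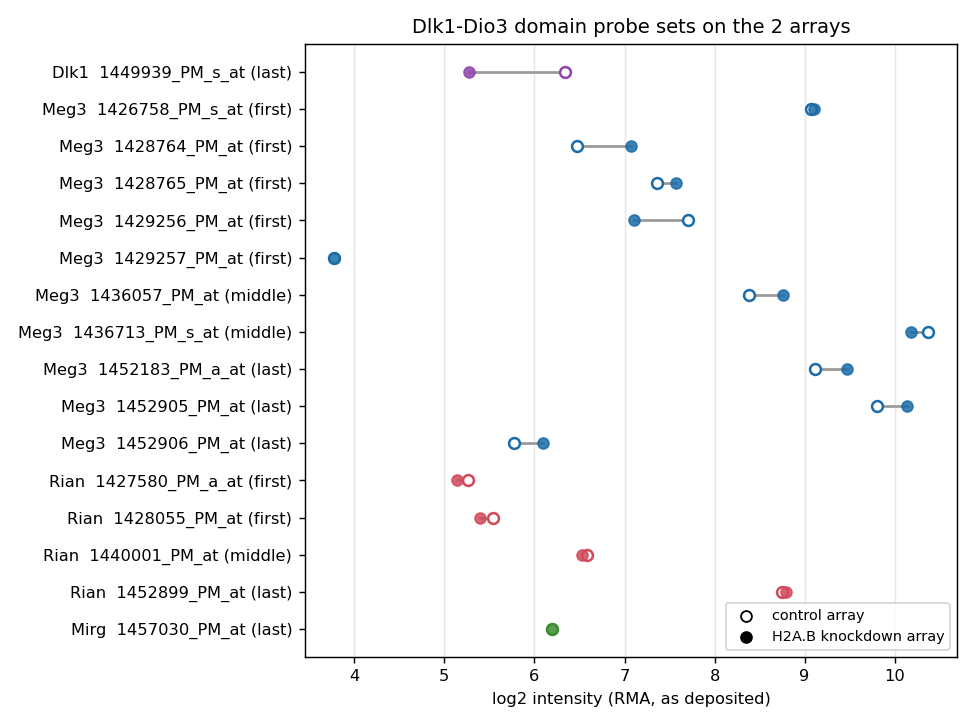
Log2 intensity (x axis, RMA values as deposited) of the 16 probe sets of the domain, 1 per line, on the control array (open circles) and the H2A.B knockdown array (filled circles), with the section of the table in parentheses. The knockdown point lies to the left of the control point for Dlk1 (5.28 against 6.34) and to the right for 7 of 10 Meg3 probe sets, and both points nearly coincide for Rian and Mirg.

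Meg3, a maternally expressed non-coding RNA, was read by probe sets that fall into 6 groups by the source sequence they were designed on. The first group, of 3 probe sets, was higher on the knockdown array throughout. Its 1428764_PM_at had 6.47 in control cells and 7.07 in knockdown cells (0.60), 1.52-fold higher and the widest difference upwards among the members. The 1428765_PM_at probe set had 7.36 and 7.57 (0.21). The brighter 1452905_PM_at had 9.80 and 10.14 (0.34). All members of this group therefore pointed the same way.

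The 2 probe sets designed on the second source sequence were also higher, but by unlike amounts. The 1426758_PM_s_at probe set had 9.07 and 9.10 (0.03), and 1452183_PM_a_at had 9.12 and 9.47 (0.35). The former lies in the first section of the table and the latter in the last. Letters such as s and a before the final "at" mark probe sets whose probes are shared between transcripts.

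The third source sequence gave the opposite direction. Its 1429256_PM_at probe set had 7.71 in control cells and 7.11 in knockdown cells (-0.60, 1.52-fold lower). Its partner 1429257_PM_at was listed at 3.78 on both arrays, the same to the last digit, and was the only Meg3 probe set below the median brightness. A total of 160 usable probe sets have the same value on both arrays. The level of 3.78 also occurs at 3 other rows of the table.

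Each of the other 3 source sequences had a single Meg3 probe set. The 1436057_PM_at probe set had 8.38 and 8.76 (0.38). Its control value is printed again 2 rows below, where it was left out as a repeat. The dim 1452906_PM_at had 5.77 and 6.10 (0.33). The brightest of all, 1436713_PM_s_at, went the other way with 10.37 and 10.18 (-0.19).

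Across its 10 probe sets the Meg3 differences ran from -0.60 to 0.60 with an SD of 0.35. Probe sets of a gene share the same RNA and are no replicates, so this is a spread within the 2 arrays. It was wide: among the 360 genes with at least 5 usable probe sets the median SD was 0.11, and 73 of them had a larger SD than Meg3. The median difference of 15 of these 360 genes, Meg3 included, was as high as 0.27 or higher. Hence the direction for Meg3 depended on which probe set was read. By the brightest it was -0.19, by the median over probe sets 0.27, and by the brightest probe set without an s, x or a suffix 0.34.

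The deposited table falls into 3 sections with unlike widths of difference, and the Meg3 probe sets were spread over them. In the first section, with 5 Meg3 probe sets, the median was 0.03 and the range -0.60 to 0.60. Only 3.2% of all probe sets of that section were 1.5-fold apart, and Meg3 had 2 of its 5 there past that size, one in each direction. In the middle section, which holds the repeated control values, the 2 Meg3 probe sets had 0.38 and -0.19. In the last section the 3 Meg3 probe sets were alike, at 0.33, 0.34 and 0.35, although their control levels ran from 5.77 to 9.80. A difference at least as large as 0.33 in either direction was found for 24.6% of all probe sets of the last section. The higher Meg3 level was thus of a size common in that section.

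**Figure D2:**
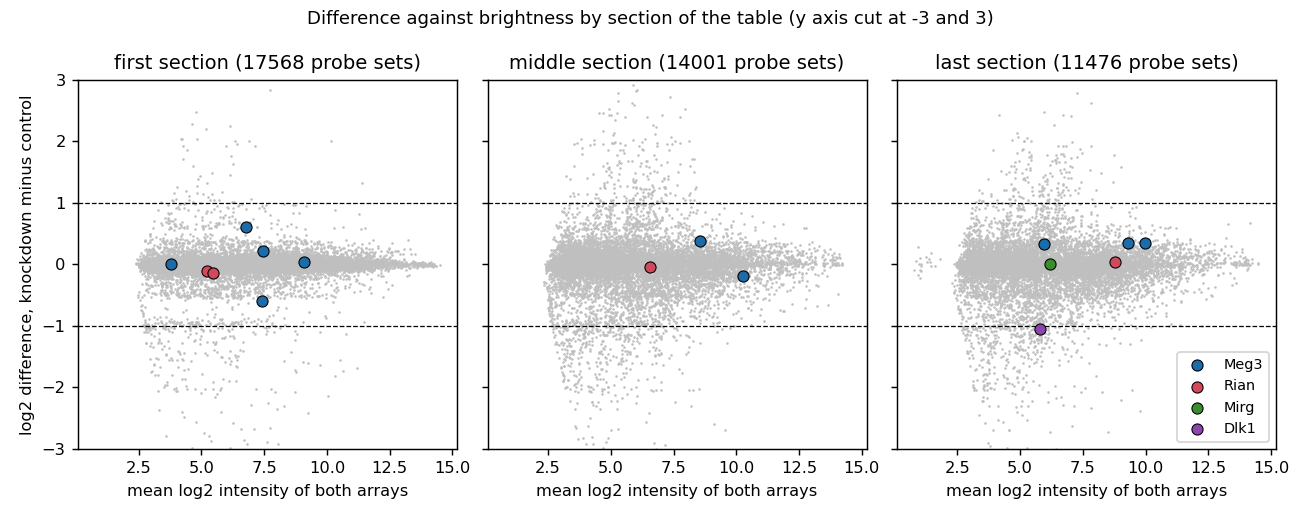
Log2 difference, knockdown minus control (y axis, shown from -3 to 3, leaving 134 of 43045 probe sets outside), against the mean log2 intensity of both arrays (x axis), for the first, middle and last section of the table. Grey dots are all usable probe sets, large points are members and dashed lines mark 2-fold. Dlk1 lies just past the lower line, and the 3 Meg3 points of the last section lie together between 0.33 and 0.35.

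Rian, the maternally expressed RNA that hosts small nucleolar RNAs, was at almost the same level on both arrays. The 1427580_PM_a_at probe set had 5.26 in control cells and 5.14 in knockdown cells (-0.12), and 1428055_PM_at had 5.54 and 5.40 (-0.14). Both lie below the median brightness. The brighter 1440001_PM_at had 6.58 and 6.53 (-0.05), and the brightest, 1452899_PM_at, had 8.75 and 8.79 (0.04). The 4 differences had an SD of 0.08, close to the median SD of 0.06 over 6826 genes with at least 2 probe sets. Mirg, the most distal of these RNAs and the host of a miRNA cluster, had 6.19 and 6.20 on its single probe set, 1457030_PM_at, a difference of 0.00095. Neither RNA therefore shared the higher median of Meg3 or the lower level of Dlk1, although all lie in one domain. Differences between these genes were not tested.

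The 3 RNAs carry miRNAs on the same strand, and examples are shown to make clear what each measured RNA hosts. Within the RefSeq limits of Meg3 lie 3 mature miRNAs, within those of Rian 6 and within those of Mirg 19. Capitals mark the seed, bases 2 to 8.
mmu-miR-770-5p, in Meg3: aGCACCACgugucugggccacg
mmu-miR-370-3p, in Rian: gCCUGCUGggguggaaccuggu
mmu-miR-410-3p, in Mirg: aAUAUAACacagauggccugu
mmu-miR-453, in Mirg: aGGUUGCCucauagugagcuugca
mmu-miR-496a-5p, in Mirg: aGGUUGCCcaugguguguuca
The 28 names of these mature miRNAs hold 27 different seeds, and only the last pair shown share one. Mature miRNAs were not measured on these arrays, so the values above are those of the host RNAs.

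The gene table lists 103 genes from Dlk1 to Dio3, of which 61 are miRNA and 19 small nucleolar RNA genes, and 6 had a usable probe set. Besides the members these were Dio3os, a non-coding RNA beside Dio3, and 3110009F21Rik. Dio3os had 6.06 in control cells and 5.59 in knockdown cells (-0.47), and 3110009F21Rik was dim on both, with 3.35 and 3.34. Dio3 itself had no probe set, so Dio3os stands next to the distal end of the domain without a value for its coding neighbour.

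Genes just outside the domain differed little apart from 2 on the Dlk1 side. The 4 nearest measured genes on each side had 20 probe sets, of which 18 were within 0.2 of zero on the log2 scale. Most of the 20 lie in the first section of the table, where small differences were usual. There only 10.3% of all probe sets differed by 0.21 or more. Of the 20, 1 was at least 2-fold apart, against 3.71% of all usable probe sets. On the Dlk1 side Slc25a47, a mitochondrial carrier gene, had 5.65 and 6.71 (1.07) and Wdr25, a WD-repeat gene, 5.46 and 6.32 (0.86), each on a single probe set. The tryptophanyl-tRNA synthetase gene Wars ranged from -0.05 to -0.02 over 3 probe sets and the carrier gene Slc25a29 from -0.05 to 0.08 over 5. On the Dio3 side the phosphatase subunit gene Ppp2r5c ranged from -0.13 to 0.03 over 7 probe sets, and the single probe sets of the dynein heavy chain gene Dync1h1 (0.10), 1700001K19Rik (-0.07) and the heat shock gene Hsp90aa1 (0.01) were close to zero. Dlk1 was lower on the knockdown array than on the control array, while Wdr25, the nearest measured gene outside the domain on its side, was higher.

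For Slc25a47 and Dio3os the knockdown to control ratio on the linear scale was an exact ratio of small whole numbers, 90 to 43 and 47 to 65, within a relative tolerance of 2e-08. With a denominator of at most 100, such ratios were held by 0.0228% of unequal probe sets of the first section, 4.16% of the middle one and 6.47% of the last. None of the 15 unequal member probe sets had one. Without those probe sets 3.59% of the last section was 2-fold lower, close to the 3.72% given above for Dlk1. Their part in the Slc25a47 and Dio3os differences was not tested.

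**Figure D3:**
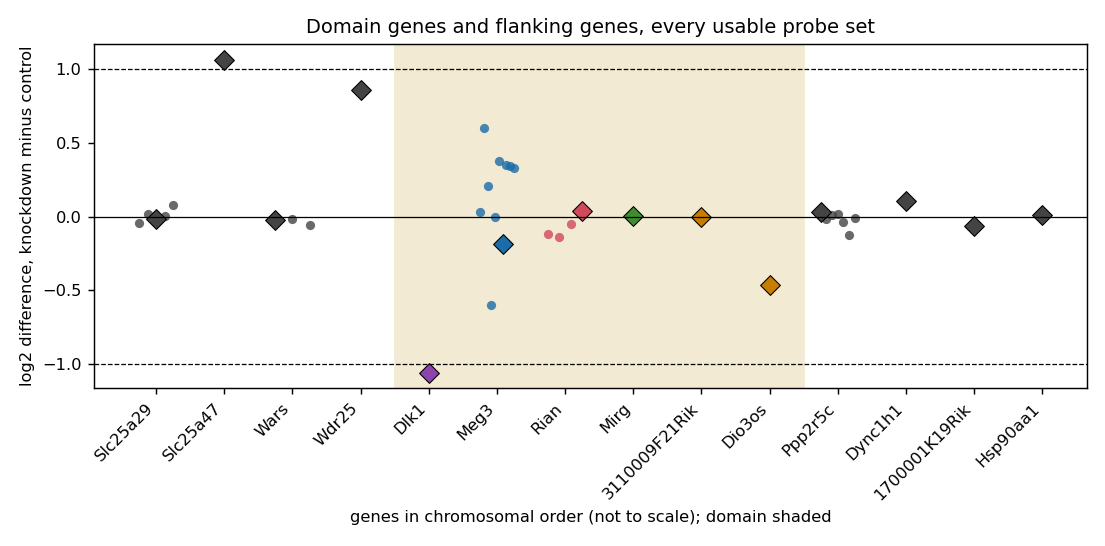
Log2 difference, knockdown minus control (y axis), of every usable probe set of the domain genes (shaded) and of 4 genes on each side, in chromosomal order and not to scale (x axis). Diamonds mark the brightest probe set of a gene, circles its other probe sets and dashed lines 2-fold. Dlk1 (-1.06) and Slc25a47 (1.07) lie past the lines, Meg3 spreads from -0.60 to 0.60, and 18 of the 20 flanking probe sets are within 0.2.

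Regulators of the methylation imprint of the domain, among them methyltransferases and TET enzymes, were compared at gene level, by the brightest probe set of each gene. Of 15 listed, 13 were measured, and 0 were 2-fold higher or lower, with a median difference of 0.04. Over all 16563 genes, 1.13% were 2-fold higher and 2.91% lower. The de novo methyltransferase gene Dnmt3b had 11.81 in control cells and 11.38 in knockdown cells (-0.42). Trim28, the corepressor that ZFP57 recruits, had 13.26 and 13.57 (0.30), with 0.11 on its other probe set. The TET enzyme gene Tet2 had 9.07 and 8.81 (-0.26), with a wider -0.86 on its other probe set. Differences were 0.11 for the maintenance methyltransferase gene Dnmt1 and 0.02 for Uhrf1, whose product brings it to DNA. Zfp57 itself had no usable value here.

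Polycomb repressive complex 2, which methylates histone H3 at lysine 27 and has been linked to Meg3 RNA, had all 8 listed genes measured and 0 apart by 2-fold, with a median of -0.0035. Eed, a core subunit, had 11.99 and 11.66 (-0.33). Its catalytic partner Ezh2 differed by 0.06 and Jarid2 by 0.05. Of the 8 genes, 7 were within 0.3 of zero, and Eed was the exception. Eed lies in the middle section, where 11% of probe sets were at least 1.5-fold apart, against 3.2% in the first. Of all 16563 genes, 4.04% were 2-fold apart.

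Notch pathway and fat cell precursor genes, listed because Dlk1 resembles Notch ligands, had 20 of 22 measured, 0 at least 2-fold higher and 2 lower, with a median of -0.01. Over all 16563 genes, 2.91% were 2-fold lower. Dll3, which encodes a divergent Notch ligand, had 7.44 and 5.82 (-1.62). Its ratio was one of whole numbers, 15 to 46. Sox9, a transcription factor gene of cartilage and fat cell precursors, was lower on all 3 of its probe sets, by -1.57 on the brightest (6.66 and 5.09), -1.55 and -1.58. The latter probe sets were dim, with 4.04 and 2.49 and with 3.88 and 2.30, below the median of each array. Notch2, a receptor gene, had 5.65 and 5.14 (-0.52), and Jag1, a ligand gene, 7.60 and 7.12 (-0.48), with -0.12 on its other probe set. The target genes Hes1 (-0.04), Hes5 (0.01) and Hey1 (-0.09) were close to zero. Of them, Hes5 was below the median of each array, with 5.13 and 5.14.

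Among thyroid hormone genes, relevant because Dio3 inactivates the hormone, 10 of 13 were measured, with 1 at least 2-fold higher, 0 lower and a median of 0.0052. The share 2-fold higher over all 16563 genes was 1.13%. The receptor gene Thra had 6.63 in control cells and 7.76 in knockdown cells (1.13), and its other probe set also differed by 1.13, as a whole-number ratio of 57 to 26. The activating deiodinase gene Dio2 differed by -0.01 and Dio1 by 0.0074. Both were dim, with Dio2 at 4.72 and 4.71 and Dio1 at 3.26 and 3.27, below the median of each array. The transporter gene Slc16a10 had 0.25 on its brightest probe set and -1.68 on the other. Retrotransposon-derived relatives of Rtl1 had 6 of 18 listed symbols measured, 0 apart by 2-fold (4.04% of all genes were) and a median of 0.09.

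Genes that process miRNAs were all measured, 10 of 10, with 0 apart by 2-fold and a median of 0.08. Of all 16563 genes, 4.04% were 2-fold apart. The Argonaute gene Ago1 had 7.95 and 7.33 (-0.62) on a single probe set, while Dicer1 had 0.07 and Drosha 0.03, with 0.04 and 0.24 on their other probe sets. Dgcr8 had 0.28 on its brightest probe set and -0.25 and 0.05 on the others, so its direction depended on the probe set. Of 14 non-coding RNAs outside the domain, 10 were measured, and 0 were 2-fold apart, with a median of -0.01. Kcnq1ot1, the paternally expressed RNA of another imprinted domain, had 7.67 and 8.47 (0.80), with -0.50 to 0.75 on its other 5 probe sets. The imprinted RNAs Airn (-0.02) and Snhg14 (0.02) were near zero, as were Neat1 (-0.04), Tug1 (-0.01) and Malat1 (-0.01), which are not imprinted. Airn was dim, with 4.52 and 4.50, below the median of each array. Miat, also not imprinted, had -0.25 on its brightest probe set and -0.27 on the other. Kcnq1ot1 and Meg3 thus both spread over values on both sides of zero among their own probe sets.

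**Figure D4:**
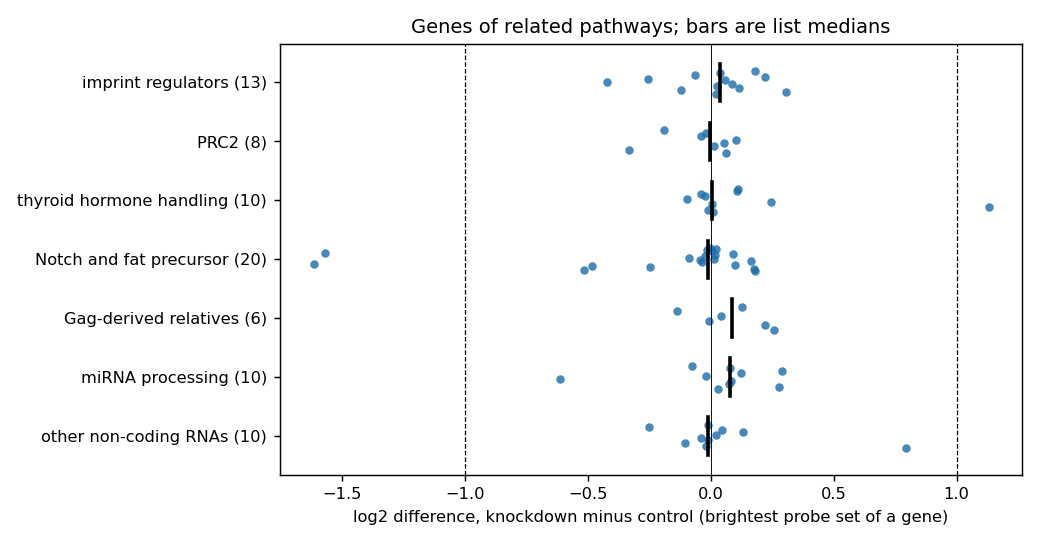
Log2 difference, knockdown minus control (x axis), of the genes in 7 lists related to the domain (y axis, with the number of genes measured), 1 point per gene by its brightest probe set. Black bars are list medians and dashed lines mark 2-fold. Medians lie between -0.01 and 0.09, and 3 genes lie past the lines, Dll3, Sox9 and Thra.

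The genes most like Meg3 were sought among 229 genes of the middle section, which holds its brightest probe set, 1436713_PM_s_at. Their mean intensity lay within 0.5 of that of this probe set. Likeness was the gap between a gene's log2 difference and the Meg3 median of 0.27, over 2 arrays. The probe set used for the match itself differed by -0.19, on the other side of zero from that median. The nearest 5 were Pold2 (0.28), Neurog1 (0.28), Akap1 (0.28), Nlk (0.25) and Gm20559 (0.29). Likeness over 2 arrays rests on a single difference per gene.

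The labelled cell type was checked against its markers. All 13 measured ES cell markers lay above the array median on both arrays, with Pou5f1 at 12.65 and 12.64 and Nanog at 11.79 and 11.69. Of these 13, 8 were higher on the knockdown array and 5 lower, with a median difference of 0.05 and a range of -0.09 to 0.33. Dlk1 and Meg3 are also expressed in fibroblasts and endoderm, so those markers are given beside them. Of 14 fibroblast or feeder markers, 9 lay above the median on each array, and their log2 intensities summed to 94.4 in control and 95.5 in knockdown cells. Of the 14, 11 were higher on the knockdown array and 3 lower, with a median difference of 0.06 and a range of -0.09 to 0.34. Most of the 14, like most ES cell markers, thus had the same direction as the Meg3 median. Over all usable probe sets, 20096 of 43045 were higher on the knockdown array. Among the markers above the median were Fn1 (12.18 and 12.28), Vim (10.55 and 10.89, 0.34, with 0.26 on its other probe set), Col1a1 (7.77 and 8.01, 0.25) and Dcn (6.16 and 6.42, 0.26, a whole-number ratio of 116 to 97). The others above it were closer to zero, with S100a4 at -0.06, Postn at 0.0036, Col5a1 at 0.02, Col3a1 at 0.07 and Thy1 at 0.07. Col1a2, Lum, Pdgfra, Pdgfrb and Twist1 were below the median on both. Primitive endoderm markers, 9 genes with 2 above the median, summed to 47.7 on each, with 4 higher and 5 lower on the knockdown array. The 9 placental markers summed to 55.4 and 54.7, with 2 higher and 7 lower. The 7 neural markers summed to 44.1 and 43.3, with 2 higher and 5 lower, from Pax6 at -0.78 to Nes at 0.33. Pax6 had only -0.03 to 0.03 on its other 3 probe sets. Elavl4 had -0.14 on its brightest probe set, but -2.99 and -0.68 on its other 2. The 6 mesoderm markers summed to 35.9 and 34.1, although 4 were higher, among them Kdr at 0.53. The 2 lower ones were Tbx6 at -1.65 and Myl7 at -0.80, both with whole-number ratios, of 23 to 72 and 27 to 47. The part of these cells in the Dlk1 and Meg3 differences was not tested, and in bulk RNA fewer cells of a type and less RNA per cell cannot be told apart.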

How the data were processed

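Log2 intensities of 45118 Affymetrix probe sets were deposited by the authors for 1 control and 1 knockdown array, made with RMA from 2 µg of total RNA, per the submitters' processing notes and the labels' protocols. No scale is written in the table, and control values, from 0.801 to 14.5, were read as log2. In the deposited knockdown column 616 values form a series that rises by 1 and 2 others lie above 20, so the column as a whole could only be recorded as a score. Without those values, which were left out, it was used as log2. Also left out were 1455 control values (rows 18185 to 33642) identical to a value up to 20 rows above, which leaves 43045 probe sets. Rows before, between and after those limits are the first, middle and last section. Of all probe sets, 28898 named 1 gene, 551 several and 15669 none. Symbols came from the platform annotation, updated by gene ID through RefSeq (GRCm38.p6), which also gave the gene order; the members' symbols are the same in both.

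Differences are knockdown minus control, with no added centring. A gene takes its brightest probe set, and a call is a 2-fold difference, with no test. Precision is limited by 1 array per group, and signal over background is unknown. Members and lists were chosen with earlier results of these data known. Named are the members, 4 genes on each side, up to 4 genes a list with a difference of at least 0.3, and the 5 genes most like Meg3; other list genes and markers were chosen after their values were seen. Alternatives were other centring, other handling of repeats, the median or mean over probe sets, probe sets without a suffix, a brightness filter and a 1.5-fold rule. Leaving out whole-number ratios and using 1 section alone were added after seeing the data. The scripts used Python 3.11.15, pandas 2.3.3, numpy 2.4.6, statsmodels 0.14.6 and matplotlib 3.10.9 and were tested on simulated data.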

Additional observations from a re-analysis of the deposited data

How the results depend on the processing

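The 16 probe set differences had 79 values under 5 alternatives of centring and repeat handling, and all 79 moved by less than 0.06, the median SD among probe sets of a gene. Repeat handling could only keep or drop a probe set. Centring moved values by little, so this says nothing about how repeatable the differences are. Leaving out both members of repeated pairs removed 1436057_PM_at and gave no value for it. How a gene was summarised mattered more: Meg3 went from -0.19 on its brightest probe set to 0.27 by the median, 0.15 by the mean and 0.34 without suffixed probe sets, and Rian from 0.04 to -0.084 by the median and -0.067 by the mean. Dlk1 has only a suffixed probe set and so no value without them. The Meg3 median of 0.27 ranged from 0.21 to 0.33 under other centring, repeat handling, brightness and suffix rules and without the probe set of widest difference, and was 0.032, 0.097 and 0.34 in the first, middle and last section alone, which hold fewer probe sets. With a 1.5-fold rule the probe sets past it were 1 higher and 2 lower, against 0 and 1 at 2-fold. Leaving out whole-number ratios could change neither count, because 0 of the 15 unequal member probe sets had one. No paired analysis was possible because each group has 1 array, and no replicate could be left out.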

Other observations

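Several values of the members occur more than once in the table to the last digit. The Dlk1 control value is also the knockdown value of another probe set 4271 rows above, and the Mirg knockdown value is found again on the same array 36143 rows above. Over all control values, 0.242% of the first section, 17.7% of the middle and 1.12% of the last recur somewhere on either array. Among probe sets that were 2-fold apart, ratios of whole numbers with a denominator of at most 100 made up 1 of 301 in the first section, 91 of 701 in the middle and 88 of 595 in the last. The cause of either pattern was not tested.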
